A study of Homo sapiens with 10 samples.

Results

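The matrix metalloproteases and their tissue inhibitors (TIMPs) were followed through 10 clonal sublines of the human glioma line U87MG. The set was given as 9 gene symbols, MMP1, MMP2, MMP3, MMP10, MMP12, MMP14, TIMP1, TIMP2 and TIMP3, and all 9 were present among the 11880 gene symbols of the deposited table. Each subclone (numbers 1, 2, 3, 5, 6, 8, 9, 10, 11 and 12) was expanded from a colony that had grown out of a single cell, so each is 1 clone of the same parent line. All were kept attached to plastic in medium containing fetal bovine serum, taken with trypsin while still in exponential growth, and none received a treatment. Total RNA of each was hybridised to 1 single-colour Affymetrix array, so no value has a replicate, and how much repeat cultures of a subclone would differ is not known.

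Metalloproteases are zinc enzymes that cut proteins of the extracellular matrix and the cell surface. They are made as inactive precursors, which other proteases activate, and TIMPs block the active site. MMP1, MMP3, MMP10 and MMP12 are secreted enzymes whose genes are induced in many cell types by interleukin 1 and by factors of the AP-1 family. MMP2 and MMP14 are often expressed without such a stimulus. The TIMPs are grouped with them here as inhibitors, and whether they are inducible in these cells was not tested. In gliomas, metalloproteases are studied for their part in invasion of the brain. The members were selected on their log2 values over these same subclones, as inducible proteases against constitutive proteases and inhibitors. Levels, ranges and correlations of the members are therefore given as descriptions, without tests.

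Values are log2 expression after RMA (background correction, quantile normalization and probe summary), so 1 unit is a 2-fold difference on the array scale. The median of all values, 5.00, served as a mark for weak signal. A gene counted as tested when at least 1 subclone reached that mark, which held for 7095 genes and 8 of the 9 members. MMP10 did not, and MMP1 and MMP12 did so only through subclone 9. Array medians lay between 4.87 and 5.11. Upper quartiles lay between 7.02 and 7.36 except in subclone 10, where the upper quartile was 6.75 and tested genes had a median difference of -0.31 from the median of the other subclones. In subclone 9 this median difference was 0.11. Among markers of neural and glioma cells, NES and CD44 reached the mark and S100B, GFAP, OLIG2 and SOX2 did not in any subclone. Because RNA was taken from whole cultures, fewer cells that express a gene and less RNA of it per cell cannot be told apart.

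RefSeq promoter windows (GRCh38.p14, 250 bases before to 50 after the annotated gene start) were at hand for 4 of the 9 members. The 150 bases before the start are shown for them because they set an inducible secreted protease beside MMP14 and the inhibitors TIMP1 and TIMP3. Motif matches are in capitals.
MMP10 (chr11:102780629-102780778, minus strand): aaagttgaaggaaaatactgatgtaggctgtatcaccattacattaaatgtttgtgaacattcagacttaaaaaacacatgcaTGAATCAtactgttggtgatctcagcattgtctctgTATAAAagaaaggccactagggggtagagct
MMP14 (chr14:22836435-22836584, plus strand): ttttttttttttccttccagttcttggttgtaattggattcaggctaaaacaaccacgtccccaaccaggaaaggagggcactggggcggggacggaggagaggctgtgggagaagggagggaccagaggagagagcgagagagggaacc
TIMP1 (chrX:47582286-47582435, plus strand): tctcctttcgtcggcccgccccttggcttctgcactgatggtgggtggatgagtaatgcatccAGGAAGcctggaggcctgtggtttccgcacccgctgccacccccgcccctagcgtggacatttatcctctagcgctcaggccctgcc
TIMP3 (chr22:32801555-32801704, plus strand): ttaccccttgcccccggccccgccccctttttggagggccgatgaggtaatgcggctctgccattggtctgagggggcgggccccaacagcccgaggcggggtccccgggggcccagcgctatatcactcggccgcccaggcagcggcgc

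The MMP10 window held the AP-1 motif TGANTCA, where N stands for any base, 67 bases before the start. The match read TGAATCA, and the motif written with N is the same on both strands. The TATA box TATAAA lay 31 bases before the start. Of all 35116 RefSeq windows of this length, 7.71% held the first motif and 11.5% the second on either strand. TIMP1 held the ETS motif AGGAAG 87 bases before the start, a motif found in 33.6% of windows. None of these 3 motifs was found in the MMP14 and TIMP3 windows. The windows differed in base composition, with a G and C content of 36.3% for MMP10, 55.0% for MMP14, 65.0% for TIMP1 and 72.7% for TIMP3. TIMP3 had 31 CpG dinucleotides against a median of 14 over all windows, and MMP10 had 2. Only exact matches to these letters were counted, with any base at N, so sites with other letters were not looked for. Matches with A, C, G or T at N were not counted apart. A motif match is a description of the sequence and does not show that a factor binds there.

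MMP3, which encodes stromelysin 1, a protease with many matrix substrates that also activates the MMP1 precursor, spanned more in the deposited values than any other tested gene. From high to low it stood at 12.21 in subclone 9, 9.88 in 1, 9.51 in 12, 9.41 in 6, 8.44 in 5, 7.81 in 2, 7.63 in 3, 7.61 in 11, 6.59 in 8 and 4.39 in 10. Subclone 9 stood 2.32 log2 units above the next one, subclone 1, and subclone 10 stood 2.20 below the next one, subclone 8. Between these ends, subclones 1, 12 and 6 lay close together at a high level, subclone 5 followed, and subclones 2, 3 and 11 were nearly level. The range of 7.81 log2 units ranked 1 among the 7095 tested genes. Its low end lies below the weak-signal mark, so no fold is given for it. Without subclone 9 it was still 5.49. The lowest value came from the array with the low upper quartile, and the part of that array in the MMP3 value was not tested. With upper quartiles brought together, subclone 10 remained the lowest for MMP3, at 3.50 log2 units below the median of the others, against 4.05 as deposited.

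MMP1 and MMP12 had a different shape, with subclone 9 alone above the weak-signal mark. MMP1, the interstitial collagenase, was at 8.43 in subclone 9, against 3.38 to 4.22 in the other 9 subclones with a median of 3.59. The difference from that median was 4.84 log2 units, 28.7-fold on the array scale. MMP12, the macrophage elastase, was at 6.93 in subclone 9, against 3.10 to 4.26 in the other 9 with a median of 3.42, a difference of 3.51 log2 units or 11.4-fold. The values of the other 9 subclones lie in a zone where RMA compresses weak signals, so both fold values may understate the difference. Within these 9 the SDs were 0.27 for MMP1 and 0.33 for MMP12, and subclones 12 and 1 were the next highest, at 4.22 for MMP1 and 4.26 for MMP12.

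MMP10, stromelysin 2, was weak throughout. It had 3.75 in subclone 9, against 3.00 to 3.31 in the other 9 subclones with a median of 3.14. The 0.61 log2 units between subclone 9 and that median exceeded the whole range of 0.31 among the others, but every value lay below the weak-signal mark. With upper quartiles brought together, subclone 9 was no longer the highest for MMP10.

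**Figure D1:**
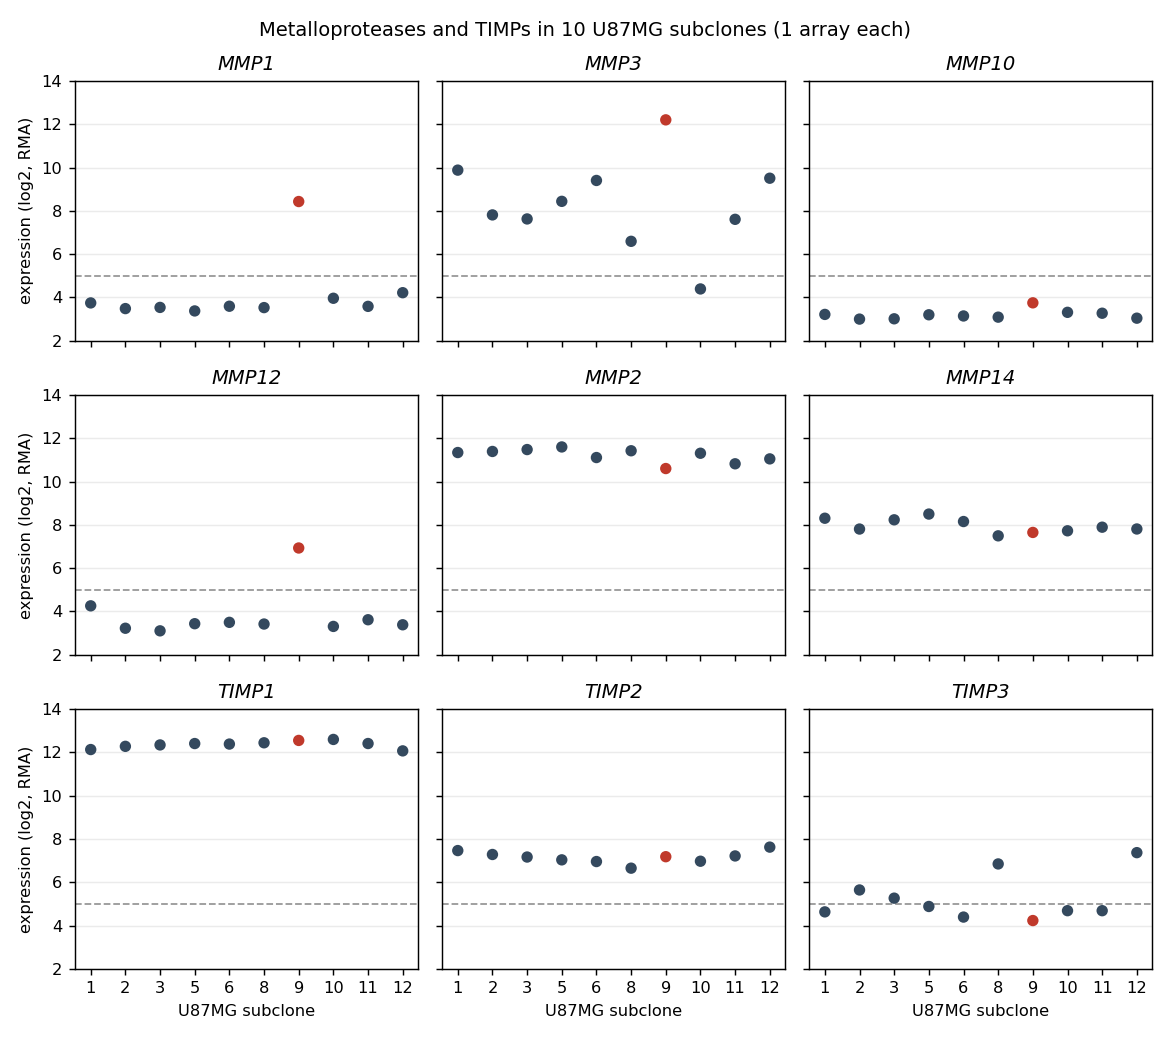
Expression (log2, RMA; vertical axes) of the 9 members in each of the 10 subclones (horizontal axes), 1 array per point, with subclone 9 in red and the others in dark blue. The dashed line is the median of all values, 5.00. MMP3 spreads from 4.39 to 12.21, MMP1 and MMP12 exceed the line in subclone 9 alone, and TIMP1 stays within 12.07 to 12.60.

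The constitutive proteases MMP2 and MMP14 ranged over 1.00 and 1.01 log2 units, a little below the median of 1.18 over all tested genes. MMP2, gelatinase A, averaged 11.22 ± 0.31 (log2, SD, n = 10 subclones). Its lowest value was 10.61 in subclone 9, followed by 10.82 in subclone 11, against a median of 11.33 over the 10 and a highest value of 11.60 in subclone 5. In subclone 9 it was thus 0.74 log2 units below the median of the other 9, whose own SD was 0.24. MMP2 was lowest in subclone 9 as deposited and under each of the 3 other scalings, which gave differences of -0.88, -0.92 and -0.82.

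MMP14, the membrane-anchored protease that activates the MMP2 precursor on the cell surface, averaged 7.96 ± 0.32 (log2, SD, n = 10). Subclones 5, 1 and 3 were highest, at 8.50, 8.31 and 8.24; the median was 7.85 and the lowest value 7.50 in subclone 8. In subclone 9 it was 7.65, inside the range of the others, 7.50 to 8.50. The difference from the median of the others was -0.24 as deposited and -0.63 with upper quartiles brought together.

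TIMP1, a secreted inhibitor of most metalloproteases, had a narrow range in the deposited values. It averaged 12.36 ± 0.17 (log2, SD, n = 10), with 12.07 in subclone 12, a median of 12.40 and 12.60 in subclone 10. Its range was 0.53 log2 units as deposited and 1.03 with upper quartiles brought together. TIMP2, which both inhibits metalloproteases and helps MMP14 to bind the MMP2 precursor, averaged 7.15 ± 0.27 (log2, SD, n = 10), with 6.65 in subclone 8, a median of 7.17 and 7.62 in subclone 12. In subclone 9 TIMP1 stood at 12.55 and TIMP2 at 7.18, both inside the range of the other subclones.

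TIMP3 had a wide range. It encodes a TIMP that binds to the extracellular matrix and also inhibits the sheddase ADAM17. From high to low it stood at 7.37 in subclone 12, 6.85 in 8, 5.64 in 2, 5.26 in 3, 4.88 in 5, 4.69 in 10, 4.68 in 11, 4.63 in 1, 4.39 in 6 and 4.23 in 9. Subclones 12 and 8 stood clear of the rest, subclones 2 and 3 came next, and the other 6 lay below the weak-signal mark. Subclone 9 was lowest, but only 0.16 below subclone 6. The range was 3.14 log2 units, and 2.98 without subclone 9, with a low end below the weak-signal mark.

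**Figure D2:**
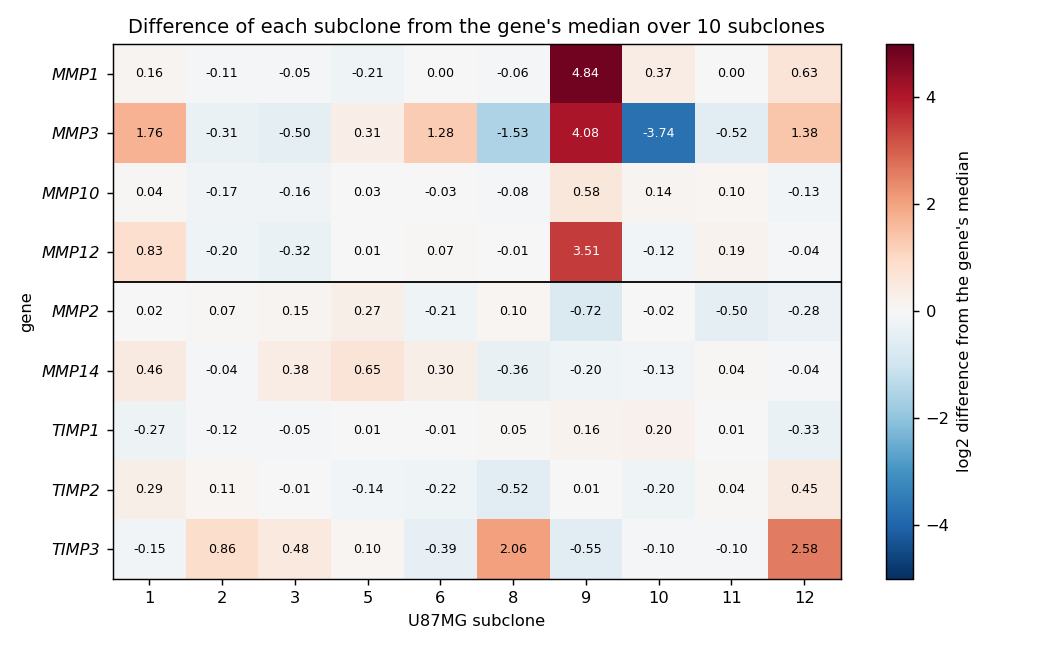
Log2 difference of each subclone (columns) from the gene's median over the 10 subclones, for the 4 inducible proteases above the black line and the 5 other members below it; red is higher and blue lower. Subclone 9 is 4.84, 4.08 and 3.51 above the median for MMP1, MMP3 and MMP12, and the cells that stand out below the line are TIMP3 in subclones 12 (2.58) and 8 (2.06).

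Of the 9 members, 4 (MMP1, MMP3, MMP12 and TIMP3) had a range of at least 2 log2 units, a width reached by 12.9% of tested genes. The other 5 ranged over 0.53 to 1.01 log2 units, less than the median of 1.18 over all tested genes. Without subclone 9 the wide members were 2, MMP3 and TIMP3, with 9.2% of tested genes past the same width. The subclone at one end was separated from its neighbour by 1.5 log2 units or more for 3 members and for 1.82% of tested genes. All 3 (MMP1, MMP3 and MMP12) had subclone 9 at the upper end, as had 0.832% of tested genes. Because these values chose the members, nothing is read from the difference between those shares.

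**Figure D3:**
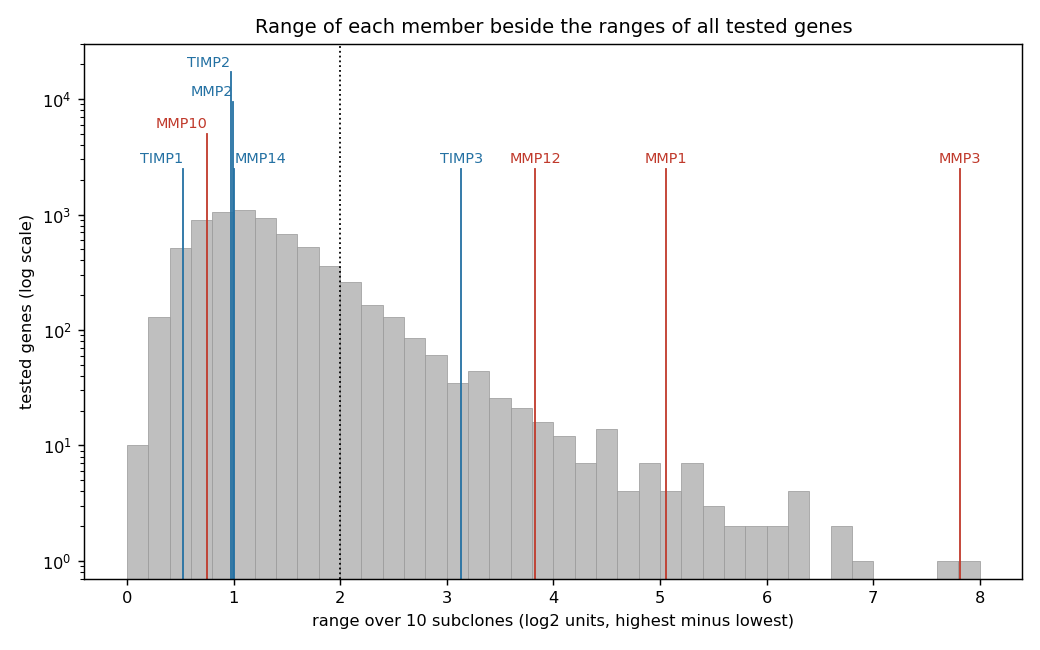
Number of tested genes (vertical axis, log scale) by range over the 10 subclones (horizontal axis, log2 units), with a line for each inducible protease (red) and each other member (blue); the dotted line marks 2 log2 units. Line heights differ only to fit the names. MMP3 lies at 7.81 at the far right, MMP1 at 5.06, MMP12 at 3.83 and TIMP3 at 3.14, and the other 5 members lie at or below 1.01.

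Subclone 9 was the highest for 4 of 9 members, against 25.8% of tested genes, and the lowest for 2 (MMP2 and TIMP3), against 11.6% of tested genes. With upper quartiles brought together, these 4 were 3, and 14.8% of tested genes were highest there. The median difference of the 4 inducible proteases from the other subclones was 3.95 log2 units in subclone 9, and that of the 5 other members was -0.24. The gap between these medians was 4.20 in subclone 9. In each of the other 9 subclones, set against the rest in the same way, it lay between -0.43 (subclone 3) and 0.47 (subclone 1). Outside subclone 9, MMP1, MMP10 and MMP12 were all below the weak-signal mark, which holds this median near 0 whatever the level of MMP3. Subclone 12 combined high MMP3 (9.51) with the highest TIMP2 and TIMP3 (7.62 and 7.37), and subclone 8 combined low MMP3 (6.59) with TIMP3 at 6.85.

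Over the 36 pairs of members, Pearson correlations across the 10 subclones reached 0.7 in size for 6 pairs. MMP1 and MMP12 had r = 0.95, MMP10 and MMP12 r = 0.90, MMP1 and MMP10 r = 0.87, and MMP3 and MMP12 r = 0.72. MMP1 and MMP2 had r = -0.73. Without subclone 9 these Pearson values were 0.09, 0.47, 0.10, 0.48 and -0.43. By ranks the pairs differed. MMP1 and MMP12 had a Spearman rho of 0.38 (0.15 without subclone 9), MMP10 and MMP12 0.71 (0.60), and MMP1 and MMP2 -0.79 (-0.72), although MMP1, MMP10 and MMP12 lay below the weak-signal mark in the other 9 subclones.

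TIMP1 and TIMP2 ran against each other, with r = -0.74 and rho = -0.67. Without subclone 9, r was -0.83, and without subclones 1 and 12, the farthest from the TIMP1 median, it was -0.31. The size of r varied with the scaling: it was -0.56 with array medians subtracted, -0.58 after quantile normalization was applied again and 0.011 with upper quartiles brought together. MMP3 and TIMP1 had r = -0.31 over the 10 subclones, -0.82 without subclone 9, 0.02 without subclone 10 and -0.70 without both. All values of a subclone come from the same array, so these correlations share whatever differed between arrays.

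MMP1, MMP3, MMP10 and MMP12 lie beside each other in the metalloprotease cluster of chromosome 11, whereas MMP14 is on chromosome 14, MMP2 on 16, TIMP1 on X, TIMP2 on 17 and TIMP3 on 22. In RefSeq order the cluster's 9 genes are MMP7, MMP20, MMP27, MMP8, MMP10, MMP1, MMP3, MMP12 and MMP13, and all were in the table. The neighbours MMP1, MMP3 and MMP12 were the 3 that exceeded the median of the other subclones by at least 1 log2 unit in subclone 9, as did 6.98% of tested genes. On either side of them the difference was smaller. MMP10, next to MMP1, differed by 0.61, and MMP13, collagenase 3, next to MMP12, had 3.66 in subclone 9, against 3.65 to 4.57 in the others. MMP7 (matrilysin), MMP20 (enamelysin), MMP27 and MMP8 (neutrophil collagenase) differed by -0.23, -0.15, 0.01 and 0.27, and none of these reached the weak-signal mark in any subclone. Of the flanking genes, YAP1, BIRC3, BIRC2, TMEM123, DYNC2H1 and PDGFD were in the table, and 0 of these 6 differed by 1 log2 unit or more in subclone 9, with values from -0.14 (TMEM123) to 0.67 (DYNC2H1).

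**Figure D4:**
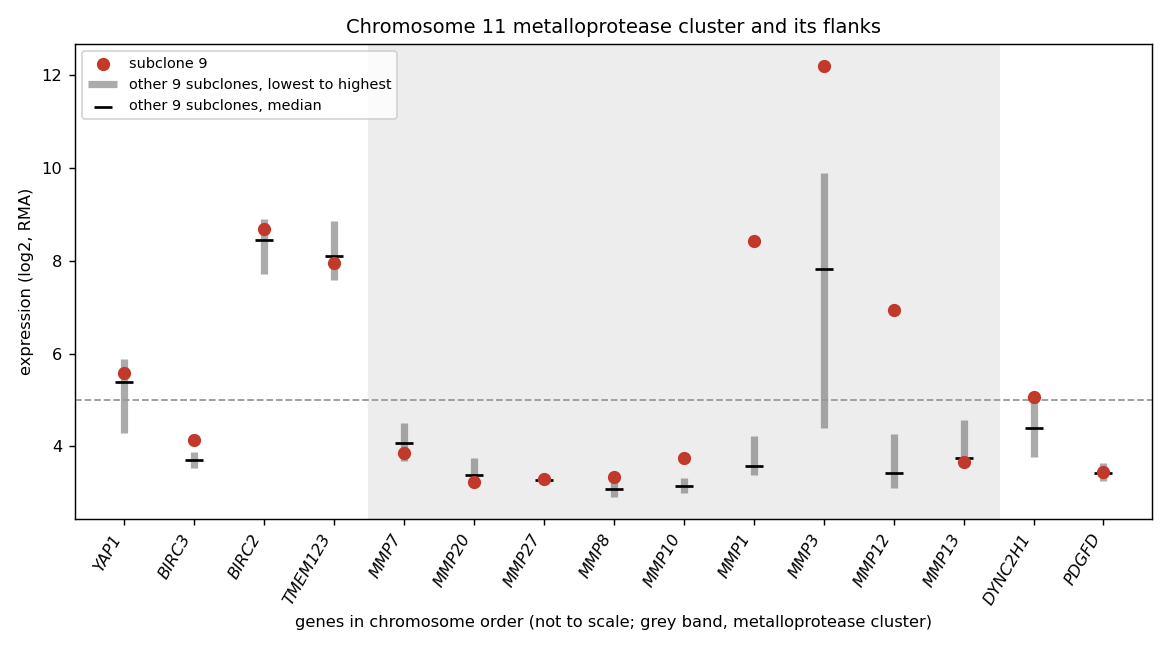
Expression (log2, RMA; vertical axis) of genes in chromosome order across the chromosome 11 metalloprotease cluster (grey band) and its flanks (horizontal axis, not to scale). Red points are subclone 9, grey bars run from the lowest to the highest of the other 9 subclones, black ticks are their medians, and the dashed line is the median of all values. MMP1, MMP3 and MMP12 stand apart in subclone 9 (8.43, 12.21 and 6.93), and the flanking genes do not.

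Among the 17 other metalloprotease genes listed, 14 were in the table and 1 was tested, MMP19, at 5.07 in subclone 5 and 4.16 in subclone 11. Of the remaining 13, including MMP9 (gelatinase B, 3.68 to 4.60) and MMP15, a further membrane-anchored protease (3.48 to 4.79), none reached the weak-signal mark, and 0 of the 14 had a range of 2 log2 units. Among the members and listed genes of the MMP family, MMP1, MMP3 and MMP12 were those with so wide a range. The members were chosen on these values, and 13 of the 14 listed genes stayed at weak signal, so nothing is read from this.

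Of 6 tested genes listed as other inhibitors or for clearance of proteases, 3 had a range of at least 2 log2 units, against 12.9% of tested genes. TFPI2, an inhibitor of plasmin and other serine proteases, reached 12.13 in subclone 9, with subclones 11 and 10 at 11.85 and 11.24 and the other 7 at 8.02 to 9.84. TIMP4 was at 8.46 in subclone 9, against 6.07 to 8.16 in the others, with subclones 12 and 11 at 8.16 and 8.14. THBS2, a matrix glycoprotein that helps to clear MMP2, was highest in subclone 1 (8.88) and subclone 12 (8.64). RECK, a membrane-anchored inhibitor, ranged over 1.15 log2 units and was lowest in subclone 10. The inhibitor genes thus did not share one order, with TIMP4 and TFPI2 highest and TIMP3 lowest in subclone 9.

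Of 8 tested genes that activate metalloprotease precursors or control that step, 2 had a range of at least 2 log2 units, against 12.9% of tested genes. PLAU encodes urokinase, which makes plasmin, an activator of several of these precursors. It was at 11.36 in subclone 9, against 7.73 to 9.76 in the other 9 with a median of 8.65. PLAU followed MMP3 with r = 0.84 over the 10 subclones (rho = 0.84), 0.71 without subclone 9 and 0.70 without subclones 9 and 10. Among the 15 genes of these lists with a range of at least 2 log2 units, PLAU correlated most highly with MMP3 over the 10 subclones. LIF was next at 0.57. Without subclone 9, FOS stood above PLAU at 0.77 and THBS2 was at 0.70. Over all tested genes outside the set, 44 reached a correlation of at least 0.9 with MMP3, above that of PLAU. PLAT, tissue plasminogen activator, was highest in subclone 1 (8.34) and had 6.31 in subclone 9. The urokinase receptor PLAUR, the convertase FURIN, which activates MMP14, and BSG, a surface inducer of metalloproteases, ranged over 0.82, 0.75 and 0.72 log2 units.

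Of 6 tested cytokine genes on the list of inducers, 4 had a range of at least 2 log2 units, against 12.9% of tested genes, and 5 were highest in subclone 9, against 25.8%. These 5 include IL1RN, the interleukin 1 receptor antagonist, which opposes induction by interleukin 1 and was at 5.61 in subclone 9. IL1RN and IL1A passed the filter only through subclone 9, where they are high, so nothing is read from these counts. The 5 other genes of this list in the table stayed below the weak-signal mark in every subclone. Among them was IL1R1, an interleukin 1 receptor gene, at 4.41 to 4.99. IL1B, a main inducer of MMP1 and MMP3 in many cells, reached 12.15 in subclone 9, with subclones 11 and 6 at 8.55 and 8.47 and the other 7 at 4.43 to 5.88. In subclones 11 and 6 MMP1 stood at 3.59 in both and MMP12 at 3.62 and 3.50, within the range of subclones with low IL1B. MMP12 correlated with IL1B at r = 0.81 (rho = 0.81) over the 10 subclones. Without subclone 9 these were 0.28 and 0.73, over MMP12 values that were all weak. MMP3 was 7.61 and 9.41 in subclones 11 and 6. Subclones 1 and 12 had MMP3 at 9.88 and 9.51 with IL1B at 5.47 and 4.63. The correlation of MMP3 with IL1B was 0.54 (rho = 0.16), and 0.06 without subclone 9. LIF, a cytokine of the interleukin 6 family, and IL1A were at 9.23 and 6.39 in subclone 9, against at most 5.29 and 4.23 elsewhere. IL6 was at 11.29 in subclone 9 and 10.32 in subclone 11. TNF, another inducer, stayed below the weak-signal mark in every subclone.

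**Figure D5:**
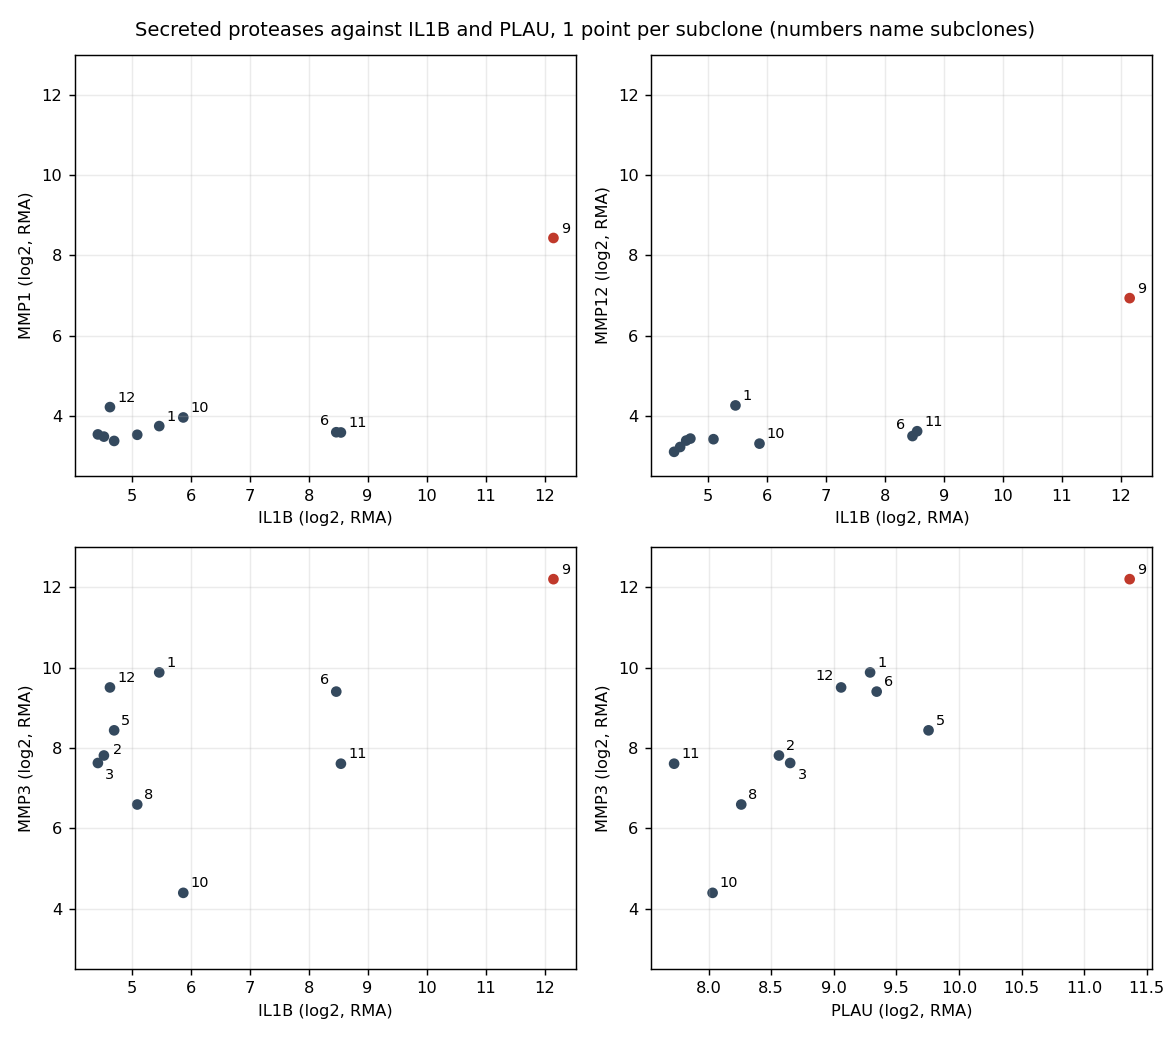
MMP1, MMP12 and MMP3 (vertical axes) against IL1B, and MMP3 against PLAU (log2, RMA on all axes), 1 point per subclone with subclone 9 in red; subclone numbers are left off where points crowd together. In subclones 6 and 11 IL1B is at 8.47 and 8.55 while MMP1 is at 3.59 in both. MMP3 follows PLAU with r = 0.84 over the 10 subclones, and 44 tested genes outside the set reach at least 0.9 with MMP3.

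Among 16 tested AP-1, ETS, NF-kB and C/EBP factor genes, 4 had a range of at least 2 log2 units, against 12.9% of tested genes. ATF3, a stress-induced partner of AP-1 proteins, was at 9.14 in subclone 9 and 7.75 in subclone 11, against at most 5.54 in the other 8. ETS2, an ETS factor that acts with AP-1 on protease promoters, was at 6.57 in subclone 9, against 4.17 to 5.03 in the others. FOS had 4.02 in subclone 9, while subclones 12 and 1 were highest at 6.86 and 6.16 and subclones 10 and 11 lowest at 3.31 and 3.32. Its correlation with MMP3 was 0.41 over the 10 subclones and 0.77 without subclone 9. CEBPD, a C/EBP factor, was highest in subclone 11 at 7.65. JUN, the main AP-1 partner of FOS, ranged over 0.74 log2 units. The AP-1 genes did not share one direction in subclone 9, where FOSL1 had its highest value (9.05) and JUNB its lowest (4.90).

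Of 8 tested genes of the related ADAM and ADAMTS proteases, 2 (ADAMTS5 and ADAMTS2) had a range of at least 2 log2 units, against 12.9% of tested genes. ADAMTS5, which cuts aggrecan, was at 9.91 in subclone 9 and 9.51 in subclone 11, against 6.14 in subclone 8. ADAMTS2, which trims procollagen, was at 6.85 in subclone 9 and 5.77 in subclone 11, against 4.31 to 5.26 in the others. ADAM17, a target of TIMP3, ranged over 1.23 log2 units. The median range of tested genes was 4.24 log2 units for the inducers and 1.86 for the other inhibitors and clearance genes, beside 1.18 over all tested genes. It was 1.83 for the ADAM and ADAMTS genes, 1.16 for the factors and 1.04 for the activators. In subclone 9 the median difference from the other subclones was 3.79 for the 6 tested inducers, beside 0.11 over all tested genes. IL1A and IL1RN passed the filter only through subclone 9, so both inducer medians lean on genes that are high there. The 5 genes of the inducer list that were not tested, among them the receptor gene IL1R1, differed by -0.10 to 0.53. This median difference was 0.05 for the other inhibitors and clearance genes and 0.20 for the ADAM and ADAMTS genes. The factors had 0.04 and the activators -0.35.

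The 3 tested genes outside the set with the highest Pearson correlation over the 10 subclones were taken as the most alike. For MMP1 they were CCL4, a chemokine (r = 0.99), the cancer-testis gene MAGEC1 (0.99) and the chemokine CXCL5 (0.99), whose values in subclone 9 were 5.32, 7.94 and 5.99. Without subclone 9 these correlations were 0.67, 0.30 and 0.17. For MMP3 they were KIAA0020 (r = 0.98), C20orf27 (0.96) and ACAT1, a mitochondrial thiolase (0.96), and 0.97, 0.93 and 0.93 without subclone 9. KIAA0020 ranged only between 7.94 in subclone 9 and 6.24 in subclone 10, a far narrower span than that of MMP3. The lowest correlation with MMP3 belonged to BST1, a surface enzyme of NAD metabolism (-0.93), which had 3.74 in subclone 9 and 5.23 in subclone 10.

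MMP2 was most like CNN1, a calponin of contractile cells (r = 0.93), BACE1, an aspartic protease (0.92), and C14orf132 (0.92). MMP14 was most like CHPF, an enzyme of chondroitin synthesis (r = 0.91), the anion transporter SLC26A4 (0.90) and TAF1C (0.90). TIMP1 was most like MGLL, a lipase (r = 0.93), the proteasome chaperone PSMD10 (0.92) and TFPI, an inhibitor of coagulation (0.88). TIMP3 was most like BOLA1 (r = 0.94), PEG10, an imprinted gene (0.91), and CXCR7, a chemokine receptor (0.89). A correlation of at least 0.9 was shared by 79 tested genes with MMP1, 44 with MMP3, 9 with MMP2 and 2 each with MMP14, TIMP1 and TIMP3. MMP1 exceeded the weak-signal mark in subclone 9 alone, so a gene with a single high value there reaches such a correlation. These counts were not made without subclone 9, and nothing is read from their differences.

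MMP12 and IL1B are also expressed by macrophages, so markers of other cell types were read beside them. Of 7 macrophage and leukocyte markers in the table, 6, among them PTPRC, CD14 and ITGAM, lay below the weak-signal mark in all 10 subclones. CSF1R exceeded it, and its highest value was in subclone 1 (5.59). The summed log2 value of the list was 25.5 in subclone 9, below the 26.0 to 29.1 of the other subclones. With 6 of the 7 markers below the mark throughout, this sum is mostly weak signal, and nothing is read from it. All 4 endothelial and all 3 epithelial markers in the table were below the mark in every subclone. The 6 fibroblast and mesenchymal markers summed to 33.1 in subclone 9, against 37.8 to 45.1 in the others. Of these, COL1A1, COL1A2, PDGFRA and PDGFRB each had their lowest value in subclone 9. DCN and THY1 did not, at 4.71 and 3.71 there against lowest values of 4.50 and 3.48. The part of the lower values of those collagen and receptor genes in the protease values of subclone 9 was not tested.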

How the data were processed

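Per the submitters' processing notes, the authors computed the deposited log2 values with RMA, and the table gives each gene symbol a single value on each array. That the scale is log2 was read from the method and from values between 2.73 and 13.70. Which software release, which array annotation and which rule for genes with several probe sets were applied is not given in the sources. No pair of columns was identical (0 found). RMA aligns the arrays, so a difference in total RNA cannot be seen. Arrays carry no depth, and their number limits the precision.

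From these values, ranges, gaps between neighbouring sorted subclones, differences from the median of the other 9 subclones and Pearson and Spearman correlations were computed with Python 3.11.15, pandas 2.3.3 and scipy 1.17.1, and the code was tested on simulated data. No p-value was computed. The members and gene lists were chosen with earlier results of these data known. All members were named, with the 3 most correlated genes for 6 of them. Up to 5 list genes with a range of at least 2 log2 units were named, and the chromosome 11 cluster. Genes added for their roles after their values were seen were IL1RN, IL1R1, RECK, PLAUR, FURIN, BSG, TNF, JUN, FOSL1, JUNB, ADAM17, MMP9 and MMP15. RefSeq (GRCh38.p14) gave gene order and promoter windows. Alternatives were 3 other array scalings, other thresholds and filters, ranks, and leaving out each subclone.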

Additional observations from a re-analysis of the deposited data

Results flagged for a closer look

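Over the 10 subclones, 11 of 58 named values had an end value whose distance to its neighbour, as a share of the whole range, exceeded Dixon's critical value for 10 samples. Chance passes this limit in about 1 in 20 groups, and 12.5% of tested genes passed it. In all 11 the subclone that stood apart was subclone 9, on the upper side, and many of the named genes were named for high values there. Over all tested genes past the limit, subclone 9 stood apart for 35.6% and subclone 10 for 40.8%. The members were selected on these values, so theirs are descriptions and no test of subclone 9. The share of the range was 0.833 for MMP1, 0.698 for MMP12 and 0.584 for MMP10, whose values are all weak. It was 0.806 for the gap between the median shifts of inducible and other members, which restates the grouping by which they were listed. Among the inducer and factor genes it was 0.722 for LIF, 0.714 for IL1A, 0.643 for ETS2 and 0.467 for IL1B, just past the limit. It was 0.94 for MAGEC1, 0.927 for CXCL5 and 0.79 for CCL4, which were named for their likeness to MMP1 and so share its end value. MMP3, PLAU, ATF3 and TIMP3 did not pass it.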

How the results depend on the processing

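Leaving out each subclone in turn gave 2 to 4 members with a range of at least 2 log2 units and 1 to 4 members apart in 1 subclone. It gave 2 to 9 pairs of members with a correlation of at least 0.7 in size. Results about subclone 9 need its array, so they come from leaving out each of the other 9 only. These gave 4 to 5 members highest in subclone 9, and a gap between inducible and other members there of 3.99 to 4.37. The lowest counts of wide members (2), members apart (1) and pairs (2) were those without subclone 9. Without subclones 9 and 10 together, an alternative added after seeing the data, 2 members were wide and 0 stood apart, and the correlation of MMP1 and MMP10 turned to -0.17. The 9 pairs were reached without subclone 10. The gap between inducible and other members was 3.63 with means over genes, 4.64 without MMP10 and 3.76 without MMP3. The correlation of TIMP1 and TIMP2 turned to 0.011 with upper quartiles brought together. That scaling moved the median difference of tested genes in subclone 9 to -0.08, against 0.11 as deposited. With no filter on low values, 7.71% of genes had a range of at least 2 log2 units. The cause of the changes under the other scaling was not tested. No paired analysis was possible because there is 1 group, with 1 array per subclone. MMP10, and MMP1 and MMP12 outside subclone 9, lie at signal too weak to order the subclones.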
